A study of Homo sapiens with 21 samples.

Results

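The enzymes that oxidize alcohols and aldehydes, cleave esters, open epoxides and oxygenate amines and sulfides outside the cytochrome P450 system were followed as 1 group of genes. They were taken by symbol: every symbol that starts with ADH1 to ADH7, ALDH1 to ALDH9, CES1 to CES5, FMO1 to FMO6 or EPHX1 to EPHX4, together with AOX1 and without ALDH1L2. The rule found 40 of the 19683 gene symbols in the table, made up of 7 alcohol dehydrogenases, 18 aldehyde dehydrogenases, 5 carboxylesterases, 5 flavin-containing monooxygenases, 4 epoxide hydrolases and 1 aldehyde oxidase. Of these, 24 had enough counts to be tested (3 alcohol dehydrogenases, 14 aldehyde dehydrogenases, 3 carboxylesterases, 2 epoxide hydrolases, 1 flavin-containing monooxygenase and AOX1), and 5 were at 0 counts in every library.

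The cells were HepG2/C3A, a human hepatoma line with wild-type genotype per the labels, in 7 groups of 3 libraries each. In 1 group the cells grew as a flat 2D monolayer, which the labels call the control. In the other 6 groups the cells had been aggregated in ultra-low attachment plates and kept as spheroids in a ClinoReactor, a slowly rotating culture vessel, and sampled on Day 3, 7, 10, 14, 21 or 28. Expression was measured by TempO-Seq, in which pairs of detector oligos ligate on a short stretch of each target transcript and are then counted, so a level depends on its probes and compares libraries rather than genes. All groups share the line and a serum-supplemented MEM per the labels, and the line is a tumour model of liver epithelium that was not compared with primary hepatocytes here.

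These families carry out much of the liver's oxidative and hydrolytic chemistry that cytochromes P450 do not. Alcohol dehydrogenases turn alcohols into aldehydes and aldehyde dehydrogenases turn aldehydes into acids, both passing electrons to NAD, and several aldehyde dehydrogenases also sit inside amino acid pathways of the mitochondrion. Carboxylesterases cleave ester and amide drugs, epoxide hydrolases add water to reactive epoxides, flavin-containing monooxygenases oxygenate nitrogen and sulfur atoms, and aldehyde oxidase uses a molybdenum cofactor to oxidize aldehydes and carbons next to ring nitrogens. In adult liver most of them are abundant, and hepatoma lines are known for low levels of several.

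Sequencing gave 18760232 to 43443262 counts a library (median 31997292). All 8 hepatocyte markers looked at (ALB, APOA1, APOA2, TTR, TF, FGB, SERPINA1 and HNF4A) were at 1 CPM or more in every library. Their summed level was 30688 to 73673 CPM in spheroid libraries and 21595 to 24246 CPM in monolayer libraries. APOA2 made up most of the monolayer sum, with a mean of 18176 CPM. At Day 28 against the monolayer APOA2 was lower, with a log2 fold change of -0.33 ± 0.09 (SE, adjusted p = 0.00109). All the other hepatocyte markers were called higher there, from 1.23 for SERPINA1 to 4.59 for FGB. The summed level of the hepatoblast markers AFP, DLK1 and GPC3 was 15318 to 32877 CPM in spheroids and 7905 to 8221 CPM in the monolayer. The 4 leukocyte markers summed to 78.0 to 265 CPM in spheroids and 64.6 to 69.2 CPM in the monolayer, with the defining genes PTPRC and CD163 at 0 in all libraries. The sum was therefore LYZ and CD68, which moved apart at Day 28 against the monolayer. LYZ had a log2 fold change of 1.51 ± 0.09 (SE, adjusted p = 5.37e-17) and CD68 of -0.81 ± 0.10 (SE, adjusted p = 1.56e-08). The 4 cholangiocyte markers summed to 471 to 866 CPM in spheroids and 532 to 566 CPM in the monolayer. That sum holds opposite changes. At Day 28 against the monolayer the log2 fold change was 0.21 ± 0.06 (SE, adjusted p = 0.00366) for SOX9. It was -0.74 ± 0.07 (SE, adjusted p = 7.57e-11) for EPCAM and -5.89 ± 0.24 (SE, adjusted p = 2.69e-17) for KRT19, and KRT7 had too few counts to test. The 5 stellate cell and fibroblast markers summed to 0.210 to 3.29 CPM in spheroids and 0.178 CPM or less in the monolayer. The 4 endothelial markers summed to 0.173 to 1.02 CPM in spheroids and 0.0651 CPM or less in the monolayer, with COL1A1, COL1A2, DCN and KDR at 0. The part of these marker levels in the results was not tested. The labels name the 3 libraries of a group biological replicates but do not state that each had its own culture, so the spread behind a p-value may be technical. In bulk samples fewer cells of a kind and less RNA per cell cannot be told apart.

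Relative to the 2D monolayer, nearly every tested enzyme gene was higher in spheroids, and AOX1 was the only tested one that was lower. At Day 3, 23 of the 24 tested genes were higher and 1 was lower in edgeR's quasi-likelihood test (Benjamini-Hochberg adjusted p under 0.05 over 12345 genes), while 78.0% of all genes tested were called, 40.1% higher and 37.8% lower. The median log2 fold change of the 24 genes was 2.39, against 0.06 for all genes. At Day 28, 20 were higher and 1 lower, against 38.5% higher and 34.8% lower among all genes (73.4% called), and the median was 1.52, against 0.08 for all genes. At least a doubling (log2 fold change of 1 or more, and called) was seen for 22 of 24 genes at Day 3, against 25.4% of all genes, and for 15 of 24 at Day 28, against 22.0% of all genes. The Day 3 and monolayer libraries did not overlap for any of the 24 genes, 23 higher and 1 lower, which held for 41.4% (higher) and 39.5% (lower) of all genes. At Day 28, 20 did not overlap and were higher and 1 was lower, against 38.8% and 35.8% of all genes.

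The days between lay close to these. Day 7 had 23 higher and 1 lower (78.7% of all genes called, 40.4% higher and 38.4% lower). The same counts, 22 higher and 1 lower, were found at Day 10 (77.9% of all genes called, 40.0% higher and 37.9% lower), at Day 14 (74.4% called, 38.7% higher and 35.7% lower) and at Day 21 (74.3% called, 39.3% higher and 35.1% lower). On those days ALDH3A1 was the single gene not called, and those not called at Day 28 were ALDH3A1, ALDH3B1 and ALDH8A1. Of the tested genes, ALDH3A1, ALDH7A1, ALDH8A1 and CES1 had a mean of under 10 counts in the monolayer and passed the filter on low counts through spheroid libraries. The remaining 20 had 19 higher and 1 lower at Day 3, and 18 higher and 1 lower at Day 28. Their median log2 fold changes were 2.11 at Day 3 and 1.36 at Day 28. These 20 were set by monolayer mean count and include ADH4, with 12, 12 and 15 monolayer counts. ADH4 also passed the filter on low counts only through spheroid libraries, so the 20 are not free of that filter. Scaling by library size alone moved the median of all genes against the monolayer up by 0.14 to 0.22 (log2), and no called direction against the monolayer reversed under it.

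**Figure D1:**
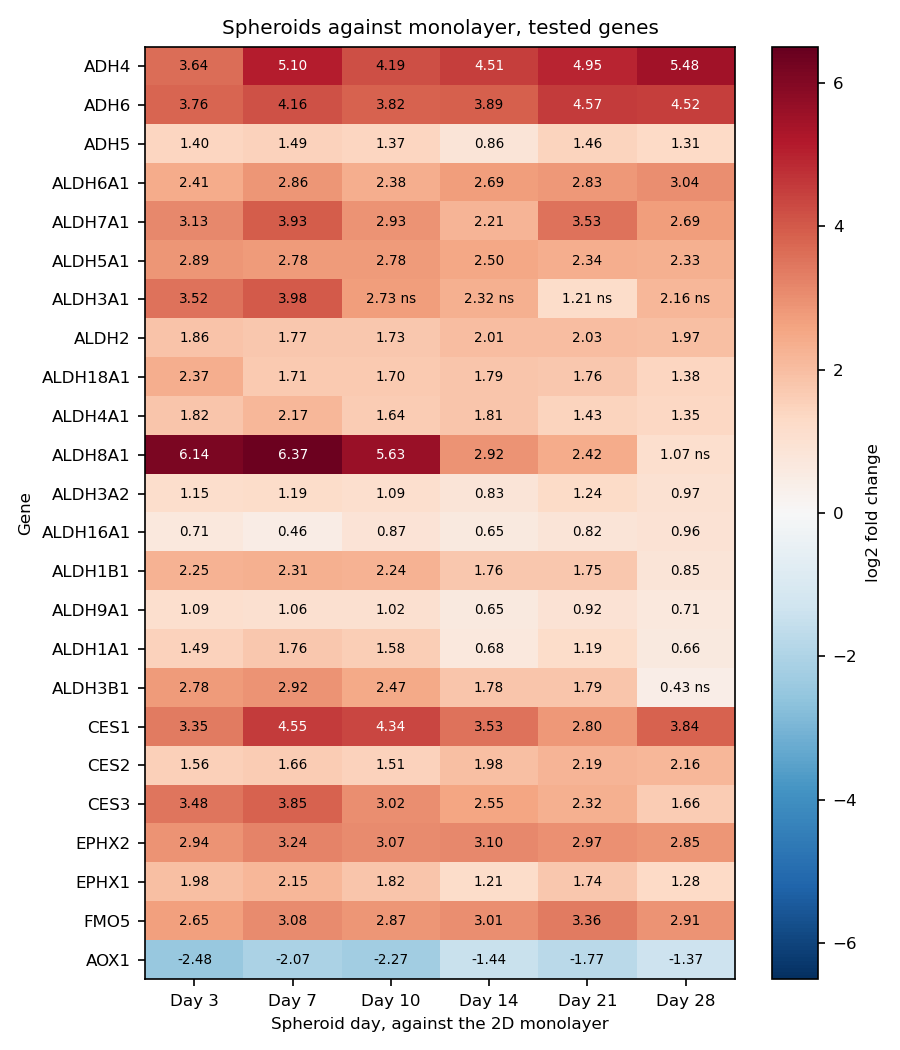
Log2 fold change of each of the 24 tested genes (down the page) at each spheroid day (across) against the 2D monolayer, in colour and as a number, with ns for an adjusted p of 0.05 or more. The AOX1 line is negative on every day, from -2.48 at Day 3 to -1.37 at Day 28, and all other lines are positive, with ALDH8A1 at 6.14 at Day 3 and 1.07 at Day 28.

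Alcohol dehydrogenase genes lie side by side on chromosome 4, from chr4:99070978 to 99435737 on the minus strand (364.8 kb, GRCh38, GENCODE 29), in the order ADH5, ADH4, ADH6, ADH1A, ADH1B, ADH1C, ADH7. The start regions of the 3 tested genes are shown because they are neighbours whose changes differed in size. Each is the RefSeq window on GRCh38.p14 from 250 bases before to 50 bases after the annotated start, minus strand, read 5′ to 3′, at chr4:99144248-99144547 for ADH4, chr4:99219197-99219496 for ADH6 and chr4:99088739-99089038 for ADH5. Capitals mark matches, on either strand, to 7 short motifs: the TATA box TATAAA, the GC box GGGCGG, the CCAAT box, the C/EBP pattern TTGCNNAA, the antioxidant response core TGACNNNGC, the partial HNF1 site GTTAAT and the HNF4 pattern CAAAGTCCA.
ADH4: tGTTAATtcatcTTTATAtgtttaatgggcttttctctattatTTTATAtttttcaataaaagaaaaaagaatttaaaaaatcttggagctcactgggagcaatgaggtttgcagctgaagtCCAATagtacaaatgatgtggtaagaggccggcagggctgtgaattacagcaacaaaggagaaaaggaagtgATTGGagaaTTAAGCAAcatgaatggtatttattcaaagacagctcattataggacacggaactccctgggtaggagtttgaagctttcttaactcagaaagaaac
ADH6: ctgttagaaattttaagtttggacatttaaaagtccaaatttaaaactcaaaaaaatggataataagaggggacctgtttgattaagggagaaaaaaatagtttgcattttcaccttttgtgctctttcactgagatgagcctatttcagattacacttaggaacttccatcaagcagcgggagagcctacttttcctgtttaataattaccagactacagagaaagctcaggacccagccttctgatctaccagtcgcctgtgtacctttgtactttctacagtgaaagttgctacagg
ADH5: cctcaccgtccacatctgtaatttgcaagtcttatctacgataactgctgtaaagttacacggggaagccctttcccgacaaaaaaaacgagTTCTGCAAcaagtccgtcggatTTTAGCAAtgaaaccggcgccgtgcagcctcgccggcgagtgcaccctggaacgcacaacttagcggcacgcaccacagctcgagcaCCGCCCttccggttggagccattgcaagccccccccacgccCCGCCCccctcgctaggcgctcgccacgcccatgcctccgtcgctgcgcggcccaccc

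The ADH4 window held a partial HNF1 site, a pair of CCAAT boxes and a C/EBP match beginning 47 bases before the start. It also held a pair of matches to the TATA box letters, on the strand opposite to the gene, beginning 238 and 207 bases before the start. The ADH4 window lies inside the GENCODE 29 span of the gene rather than at its 5′ end, so these positions refer to the RefSeq start alone. The ADH6 window held none of the 7 motifs, which says only that these letters are not in this window. The ADH5 window held GC boxes beginning 49 and 8 bases before the start and C/EBP matches at 158 and 136 bases before it. CG pairs numbered 2 in the ADH4 window, 2 in the ADH6 window and 29 in the ADH5 window, against a median of 14 over all 35116 RefSeq windows of the same length. Of all windows, 11.5% held a TATA box, 45.0% a GC box, 34.6% a CCAAT box, 10.5% the C/EBP pattern, 13.3% the antioxidant core, 6.88% the partial HNF1 site and 0.384% the HNF4 pattern. A match of letters is a description, not a binding site.

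ADH4 and ADH6, both enriched in liver, had the widest differences among the alcohol dehydrogenases, and ADH5 a smaller one. ADH4, the class II enzyme that oxidizes ethanol at high concentrations, retinol and long-chain alcohols (chr4:99123657-99157792, minus strand), had 0.508, 0.305 and 0.488 CPM in the monolayer libraries, 4.85, 5.98 and 5.03 at Day 3, 12.7, 14.2 and 16.6 at Day 7, 7.2, 7.68 and 8.29 at Day 10, 8.65, 10.98 and 9.34 at Day 14, 14.5, 12.4 and 12.4 at Day 21 and 18.5, 16.5 and 21.7 at Day 28. Its lowest spheroid library was at 4.85 CPM and its highest monolayer library at 0.508 CPM, so the groups did not overlap. The log2 fold change was 3.64 ± 0.22 (SE, adjusted p = 2.46e-16) at Day 3 and 5.48 ± 0.21 (SE, adjusted p = 9.73e-22) at Day 28. It rests on a mean of 13 counts in the monolayer libraries, and ADH4 passed the filter on low counts through spheroid libraries.

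ADH6, the class V enzyme, whose natural substrates are less well defined (chr4:99202638-99219537, minus strand), had 5.04, 5.7 and 6.28 CPM in the monolayer libraries, 74.5, 79.2 and 79.1 at Day 3, 101, 101 and 104 at Day 7, 78.2, 82.7 and 80.1 at Day 10, 82.6, 90.04 and 80.4 at Day 14, 129.8, 139.9 and 136 at Day 21 and 154, 124 and 115 at Day 28. The lowest spheroid library was at 74.5 CPM and the highest monolayer library at 6.28 CPM, and Day 21 and Day 28 held the highest values. In log2 terms the difference from the monolayer was 3.76 ± 0.10 (SE, adjusted p = 2.74e-26) at Day 3 and 4.52 ± 0.10 (SE, adjusted p = 6.75e-28) at Day 28. ADH5, the glutathione-dependent formaldehyde dehydrogenase found in most tissues (chr4:99070978-99088801, minus strand), had 161, 161 and 155 CPM in the monolayer libraries, 407, 424 and 432 at Day 3, 444, 449.9 and 448 at Day 7, 397, 417 and 421 at Day 10, 280.3, 301 and 281 at Day 14, 449, 412 and 448 at Day 21 and 398, 390.4 and 397 at Day 28. Day 14 was the lowest spheroid group, yet its 3 libraries remained above those of the monolayer. Against the monolayer, its log2 fold change was 1.40 ± 0.06 (SE, adjusted p = 2.85e-21) at Day 3 and 1.31 ± 0.06 (SE, adjusted p = 2.71e-20) at Day 28. Of the 50-base stretches of its transcript, 14.0% also occur in transcripts of other annotated genes, ADH5 pseudogenes among them, so counts could be shared.

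**Figure D2:**
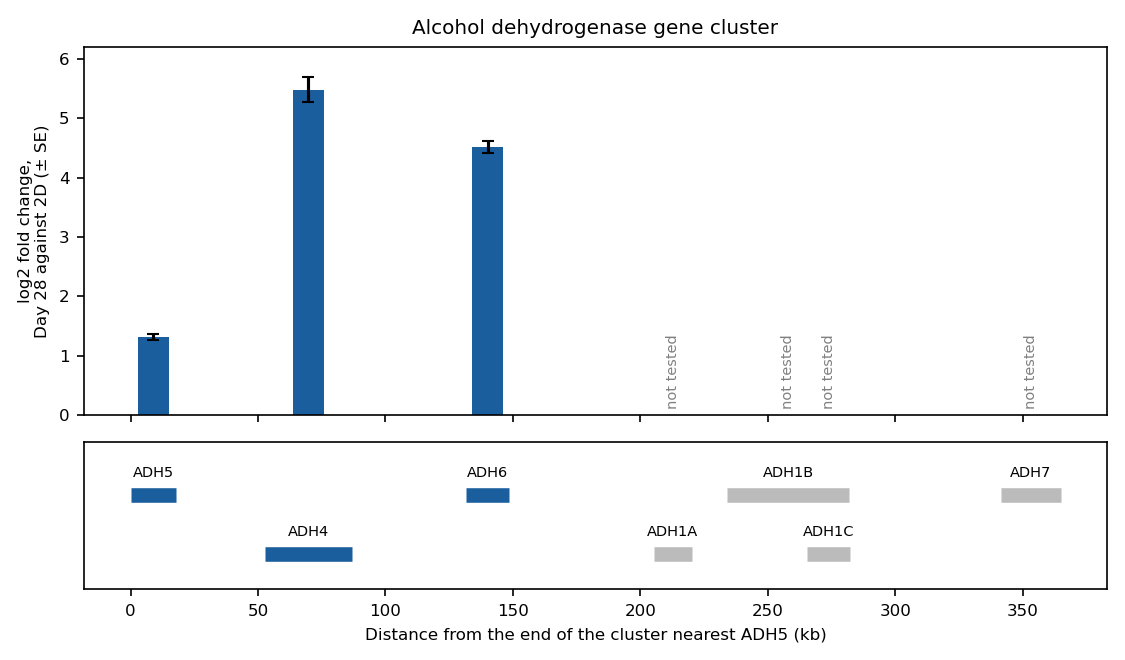
Upper panel: log2 fold change of Day 28 spheroids against the 2D monolayer (bars, ± SE) for the tested genes of the alcohol dehydrogenase cluster. Lower panel: position of the 7 genes, as distance in kb from the end of the cluster nearest ADH5. ADH4 (5.48) and ADH6 (4.52) lie beyond ADH5 (1.31), and the other 4 genes had too few counts to be tested.

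The class I genes ADH1A, ADH1B and ADH1C, which encode the main ethanol-oxidizing enzymes of adult liver, were at or near 0 counts in these cells. ADH1A had 12 counts in all over 3 libraries, ADH1B had 7 counts over 3 libraries and ADH1C had 1 count. None of those counts came from the monolayer libraries. These 3 genes share stretches of their transcripts, so the few counts cannot be given to 1 of them with certainty. ADH7, the stomach enzyme, was at 0 in every library. A count of 0 allows 3 counts in a library, which is 0.0691 to 0.160 CPM at these totals, for counting error only.

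Aldehyde dehydrogenases that clear reactive and dietary aldehydes were higher at Day 3 in all tested cases, where 40.1% of all genes were called higher. Their courses differed in later days. ALDH2, the mitochondrial enzyme that oxidizes acetaldehyde from ethanol (chr12:111766887-111817529, plus strand), had 83.3, 69.5 and 69.7 CPM in the monolayer libraries, 277, 266 and 266 at Day 3, 270.1, 241 and 246 at Day 7, 249.7, 255 and 231 at Day 10, 299.6, 309 and 283 at Day 14, 308, 302 and 295 at Day 21 and 316, 275 and 281 at Day 28. Its spheroid libraries stayed between 231 and 316 CPM, and none reached down to the monolayer's 83.3 CPM. Its difference from the monolayer on the log2 scale was 1.86 ± 0.07 (SE, adjusted p = 8.37e-22) at Day 3 and 1.97 ± 0.07 (SE, adjusted p = 3.33e-22) at Day 28, and between Day 28 and Day 3 it was 0.11 ± 0.07 (SE, adjusted p = 0.175), which did not pass. Without Day 28 replicate 2 that last adjusted p was 0.0467.

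ALDH1B1, a mitochondrial relative of ALDH2 that also accepts acetaldehyde (chr9:38392664-38398661, plus strand), had 23.3, 25.2 and 26.5 CPM in the monolayer libraries, 121, 117 and 118 at Day 3, 118, 131 and 124 at Day 7, 128, 112 and 116 at Day 10, 89.2, 87.4 and 77.3 at Day 14, 92.7, 87.3 and 71.9 at Day 21 and 46.1, 46.1 and 43.2 at Day 28. The 3 Day 28 libraries lay below every other spheroid library and above the monolayer. Set against the monolayer, the log2 difference was 2.25 ± 0.08 (SE, adjusted p = 4.94e-22) at Day 3 and 0.85 ± 0.08 (SE, adjusted p = 7.69e-11) at Day 28, and Day 28 against Day 3 gave -1.40 ± 0.08 (SE, adjusted p = 5.37e-16). ALDH3B1, which acts on aldehydes from lipid peroxidation (chr11:68008578-68029282, plus strand), had 1.53, 2.09 and 1.69 CPM in the monolayer libraries, 12.6, 10.6 and 13.7 at Day 3, 14.1, 11.6 and 14.99 at Day 7, 8.56, 11.5 and 9.68 at Day 10, 7.6, 5.66 and 5.17 at Day 14, 7.75, 5.49 and 5.37 at Day 21 and 2.03, 1.96 and 3.26 at Day 28. At Day 28 its range of 1.96 to 3.26 CPM overlapped the monolayer's range of 1.53 to 2.09 CPM, while all earlier spheroid libraries were above 5 CPM. The log2 fold change was 2.78 ± 0.21 (SE, adjusted p = 5.21e-14) at Day 3 and 0.43 ± 0.23 (SE, adjusted p = 0.098) at Day 28, the last not called, with adjusted p of 0.0477 without monolayer replicate 2 and 0.0348 without Day 28 replicate 2. Day 28 against Day 3 gave -2.35 ± 0.20 (SE, adjusted p = 8.52e-12).

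Of the remaining enzymes of this kind, ALDH1A1, which makes retinoic acid from retinal, averaged 213 ± 19.4 CPM at Day 3, 120.1 ± 14.1 CPM at Day 28 and 76.1 ± 7.14 CPM in the monolayer (SD, n = 3 each). Its log2 fold change was 1.49 ± 0.09 (SE, adjusted p = 4.11e-14) at Day 3 and 0.66 ± 0.09 (SE, adjusted p = 4.79e-07) at Day 28. ALDH3A2, the fatty aldehyde dehydrogenase, gave 1.15 ± 0.08 (SE, adjusted p = 5.2e-15) at Day 3 and 0.97 ± 0.08 (SE, adjusted p = 6.22e-13) at Day 28. ALDH9A1, which works in carnitine synthesis, gave 1.09 ± 0.08 (SE, adjusted p = 1.06e-13) and 0.71 ± 0.08 (SE, adjusted p = 4.16e-09) at the same days. ALDH16A1, an atypical member of the family, had the smallest called difference at Day 3, with 0.71 ± 0.08 (SE, adjusted p = 2.9e-09), and 0.96 ± 0.08 (SE, adjusted p = 4.31e-12) at Day 28. All 4 genes were above the monolayer in every spheroid library. Of all genes, 41.4% were higher without overlap at Day 3 alone and 38.8% at Day 28 alone, and the share over all days was not counted.

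ALDH3A1, an enzyme best known from the cornea and from stress responses, was near the detection limit. It had 3 counts in the monolayer libraries together, 41 at Day 3 and 66 at Day 7. The ratio of Day 3 to the monolayer was 13.1, with a 95% exact interval of 4.19 to 66.3 that covers counting error only. Its calls at Day 3 (adjusted p = 0.0143) and Day 7 (adjusted p = 0.00477) rest on few reads. At Day 3 the adjusted p was 0.0734 without monolayer replicate 2 and 0.0504 without Day 3 replicate 3.

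**Figure D3:**
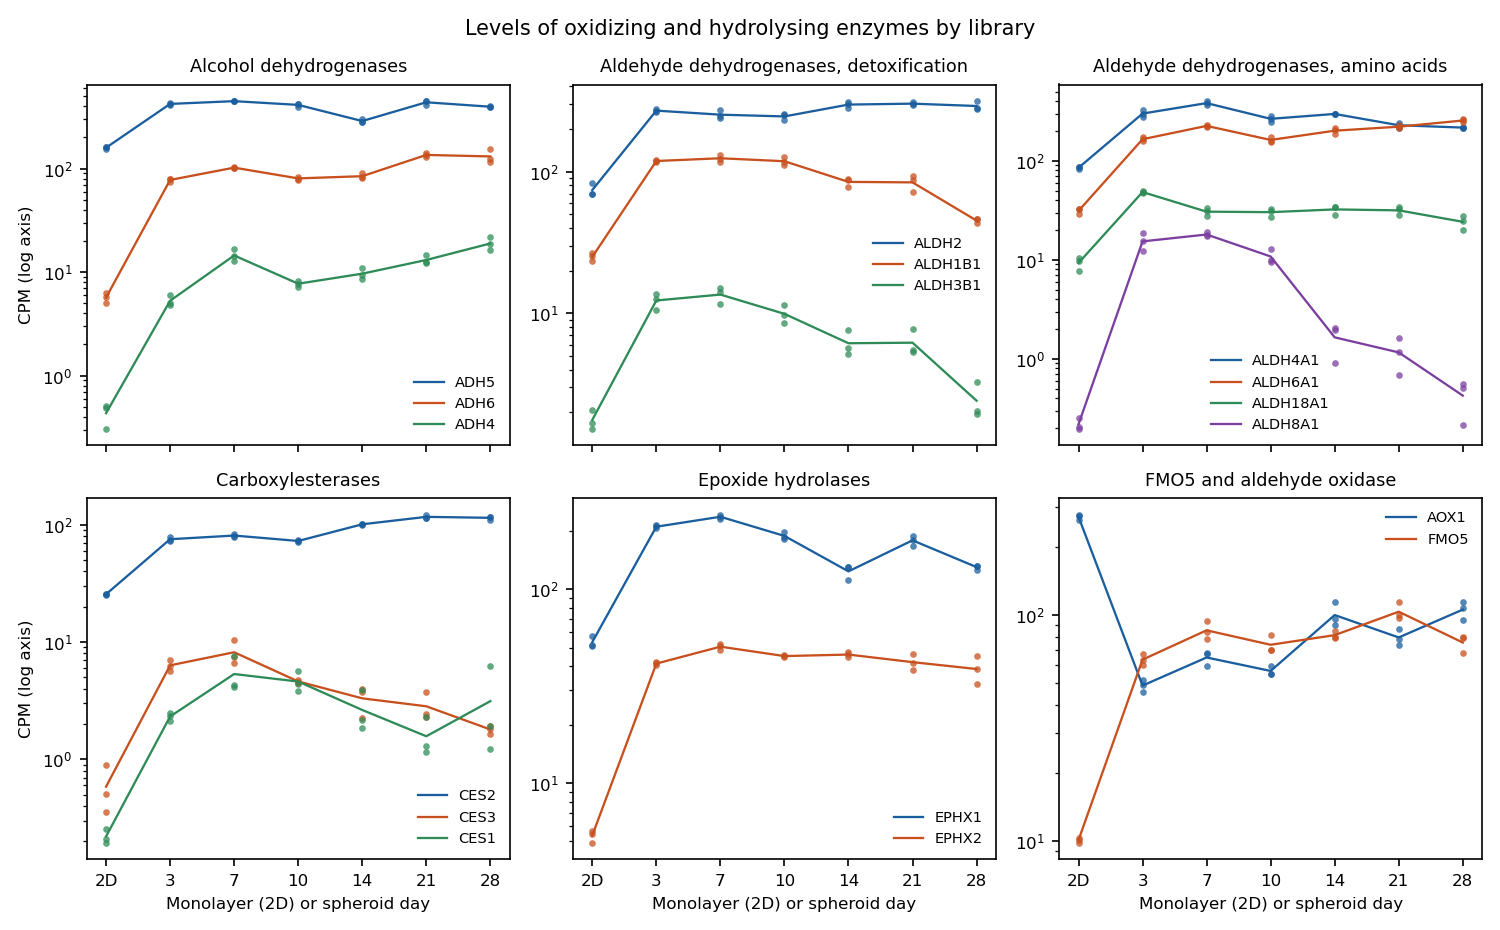
Level in CPM (log axis) of genes of each family, by group (2D monolayer, then spheroid day, spaced evenly); each point is a library and lines join group means. ALDH8A1 falls to 0.425 CPM at Day 28, ADH4 reaches 18.9 CPM there, and AOX1 is the only plotted gene whose highest group is the monolayer.

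Aldehyde dehydrogenases that work inside amino acid pathways formed the second subset. The widest change of all 24 genes was that of ALDH8A1, the aminomuconic semialdehyde dehydrogenase of tryptophan breakdown (chr6:134917390-134950122, minus strand). Its start region is shown for that reason, from chr6:134950052-134950351 on the minus strand (RefSeq, GRCh38.p14), with the capitals as above.
ALDH8A1: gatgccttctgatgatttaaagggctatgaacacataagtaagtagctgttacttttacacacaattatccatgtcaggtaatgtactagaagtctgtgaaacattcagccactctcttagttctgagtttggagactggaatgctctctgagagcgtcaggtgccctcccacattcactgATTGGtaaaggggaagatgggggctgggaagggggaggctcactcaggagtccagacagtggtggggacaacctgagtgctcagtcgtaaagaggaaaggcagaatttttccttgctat

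This window held 1 CCAAT match, 69 bases before the start, and 2 CG pairs. ALDH8A1 had 0.254, 0.204 and 0.195 CPM in the monolayer libraries, 18.5, 15.4 and 12.2 at Day 3, 18.9, 17.4 and 17.7 at Day 7, 9.6, 9.94 and 12.9 at Day 10, 1.98, 2.06 and 0.901 at Day 14, 1.61, 0.69 and 1.18 at Day 21 and 0.213, 0.556 and 0.505 at Day 28. Day 3, Day 7 and Day 10 were all at 9.60 CPM or more, Day 14 and Day 21 at 2.06 CPM or less, and Day 28 overlapped the monolayer. In log2 terms the difference from the monolayer was 6.14 ± 0.32 (SE, adjusted p = 3.53e-17) at Day 3, 6.37 ± 0.32 (SE, adjusted p = 1.21e-17) at Day 7, 2.92 ± 0.39 (SE, adjusted p = 8.11e-08) at Day 14 and 1.07 ± 0.51 (SE, adjusted p = 0.0592) at Day 28. The Day 28 difference did not pass in edgeR, but it did in DESeq2 (adjusted p = 0.0278), with library size scaling (0.0243), without the filter on low counts (0.0150) and without Day 28 replicate 1 (0.0251). Day 14 against Day 10 was -2.71 ± 0.24 (SE, adjusted p = 7.06e-11). The difference of Day 28 from Day 3 was -5.08 ± 0.29 (SE, adjusted p = 2.75e-15). The monolayer held a mean of 6.67 counts of this gene.

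ALDH6A1, the methylmalonate semialdehyde dehydrogenase of valine and pyrimidine breakdown (chr14:74056850-74084493, minus strand), had 32.5, 28.8 and 32.3 CPM in the monolayer libraries, 157, 164 and 174 at Day 3, 221, 226 and 229 at Day 7, 156, 159 and 173 at Day 10, 203, 214 and 187 at Day 14, 220.4, 230.2 and 213 at Day 21 and 265, 246 and 256 at Day 28. Day 28 was its highest group and no spheroid library came near the monolayer. Against the monolayer, its log2 fold change was 2.41 ± 0.07 (SE, adjusted p = 3.89e-25) at Day 3 and 3.04 ± 0.07 (SE, adjusted p = 3.44e-27) at Day 28. The difference of Day 28 from Day 3 was 0.63 ± 0.06 (SE, adjusted p = 3.12e-10). ALDH4A1, which oxidizes pyrroline-carboxylate in proline breakdown (chr1:18871430-18902781, minus strand), had 86.1, 82.8 and 86.3 CPM in the monolayer libraries, 275, 301 and 326 at Day 3, 383, 363 and 403 at Day 7, 248, 285 and 264 at Day 10, 299, 296 and 298 at Day 14, 229.6, 214 and 243 at Day 21 and 216, 212 and 222 at Day 28. Day 7 was its highest group, and the last pair of groups, Day 21 and Day 28, were its lowest among spheroids. Its difference from the monolayer on the log2 scale was 1.82 ± 0.07 (SE, adjusted p = 3.29e-22) at Day 3 and 1.35 ± 0.07 (SE, adjusted p = 1.44e-18) at Day 28. Of its transcript's stretches, 42.9% also belong to an overlapping annotated gene on the same strand, so its counts could be shared.

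ALDH18A1, which makes pyrroline-carboxylate from glutamate and so works in the opposite direction to ALDH4A1 (chr10:95605929-95656706, minus strand), had 7.8, 9.72 and 10.3 CPM in the monolayer libraries, 49.1, 47.8 and 48.2 at Day 3, 27.7, 33.3 and 30.9 at Day 7, 27.3, 31.1 and 32.4 at Day 10, 34.2, 28.5 and 34.2 at Day 14, 33.9, 28.3 and 32.6 at Day 21 and 19.8, 24.9 and 27.9 at Day 28. Day 3 held the highest 3 libraries, at 47.8 to 49.1 CPM, and no later library exceeded 34.2 CPM. Set against the monolayer, the log2 difference was 2.37 ± 0.12 (SE, adjusted p = 1.82e-18) at Day 3 and 1.38 ± 0.12 (SE, adjusted p = 4.21e-12) at Day 28. The difference of Day 28 from Day 3 was -0.99 ± 0.11 (SE, adjusted p = 3.08e-09). ALDH5A1, the succinic semialdehyde dehydrogenase of GABA breakdown (chr6:24494852-24537207, plus strand), had 0.678, 0.611 and 0.716 CPM in the monolayer libraries, 5.72, 4.57 and 4.54 at Day 3, 4.5, 4.76 and 4.46 at Day 7, 3.68, 4.85 and 5.2 at Day 10, 4.91, 3.18 and 3.17 at Day 14, 3.64, 2.4 and 4.09 at Day 21 and 4.22, 3.04 and 2.91 at Day 28. Every spheroid library lay above the monolayer, and Day 28, at 2.91 to 4.22 CPM, lay below Day 3, at 4.54 to 5.72 CPM, without overlap. The log2 fold change was 2.89 ± 0.26 (SE, adjusted p = 7.54e-12) at Day 3 and 2.33 ± 0.27 (SE, adjusted p = 2.9e-09) at Day 28. Day 28 against Day 3 was -0.56 ± 0.22 (SE, adjusted p = 0.0291), and its adjusted p was 0.166 without Day 3 replicate 1, 0.126 without Day 28 replicate 2 and 0.138 without Day 28 replicate 3.

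ALDH7A1, which acts on aminoadipic semialdehyde in lysine breakdown and on betaine aldehyde (chr5:126531200-126595418, minus strand), had 0.127, 0.153 and 0.0651 CPM in the monolayer libraries, 0.696, 0.484 and 2.02 at Day 3, 1.75, 2.34 and 1.42 at Day 7, 0.786, 0.953 and 1.0 at Day 10, 0.659, 0.629 and 0.367 at Day 14, 1.0, 1.38 and 1.79 at Day 21 and 0.694, 0.702 and 0.932 at Day 28. Day 3 replicate 3 stood above its partners, and every spheroid library exceeded every monolayer library. In log2 terms the difference from the monolayer was 3.13 ± 0.56 (SE, adjusted p = 7.61e-06) at Day 3, or 2.31 without Day 3 replicate 3, and 2.69 ± 0.58 (SE, adjusted p = 0.000123) at Day 28. The monolayer held a mean of 3.67 counts, and 7.12% of the transcript's stretches occur in a pseudogene.

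The 3 tested carboxylesterase genes were higher than in the monolayer at every spheroid day, with different courses. On a single day 38.5% to 40.4% of all genes were called higher. CES2, which cleaves esters with large alcohol groups, among them the prodrug irinotecan (chr16:66934444-66945096, plus strand), had 25.5, 25.7 and 25.3 CPM in the monolayer libraries, 74.5, 72.5 and 77.95 at Day 3, 77.7, 83.6 and 80.5 at Day 7, 73.6, 72.6 and 71.2 at Day 10, 98.9, 101 and 102 at Day 14, 113, 114 and 122 at Day 21 and 117, 115 and 110.2 at Day 28. The 3 latest groups, at 98.9 CPM or more, were above the 3 earlier spheroid groups, at 83.6 CPM or less. Against the monolayer, its log2 fold change was 1.56 ± 0.06 (SE, adjusted p = 5.06e-21) at Day 3 and 2.16 ± 0.06 (SE, adjusted p = 1.92e-24) at Day 28. The difference of Day 28 from Day 3 was 0.61 ± 0.06 (SE, adjusted p = 1.89e-10).

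CES3, a less studied relative that lies next to CES2 on chromosome 16 (chr16:66961237-66975148, plus strand), had 0.89, 0.509 and 0.358 CPM in the monolayer libraries, 6.24, 7.06 and 5.67 at Day 3, 7.49, 10.4 and 6.59 at Day 7, 4.51, 4.55 and 4.78 at Day 10, 3.71, 3.95 and 2.27 at Day 14, 3.76, 2.31 and 2.43 at Day 21 and 1.81, 1.64 and 1.94 at Day 28. Its spheroid values were highest at Day 7 and lowest at Day 28, where they stayed above the monolayer. Its difference from the monolayer on the log2 scale was 3.48 ± 0.28 (SE, adjusted p = 5.96e-13) at Day 3 and 1.66 ± 0.32 (SE, adjusted p = 2e-05) at Day 28. The difference of Day 28 from Day 3 was -1.82 ± 0.25 (SE, adjusted p = 1.39e-07). CES1, the dominant carboxylesterase of human liver (chr16:55802851-55833337, minus strand), had 0.212, 0.254 and 0.195 CPM in the monolayer libraries, 2.34, 2.49 and 2.13 at Day 3, 4.12, 4.31 and 7.57 at Day 7, 4.39, 5.61 and 3.81 at Day 10, 1.86, 3.88 and 2.17 at Day 14, 1.29, 2.28 and 1.15 at Day 21 and 1.23, 6.23 and 1.94 at Day 28. The value in Day 28 replicate 2 stood apart from the other Day 28 libraries, and no spheroid library overlapped the monolayer. Set against the monolayer, the log2 difference was 3.35 ± 0.60 (SE, adjusted p = 3.62e-05) at Day 3 and 3.84 ± 0.59 (SE, adjusted p = 6.14e-06) at Day 28, or 2.85 at Day 28 without replicate 2. Day 28 against Day 3 was 0.49 ± 0.43 (SE, adjusted p = 0.342), which did not pass, and -0.50 without Day 28 replicate 2. Counts of CES1 are uncertain, since the monolayer held a mean of 7 counts and 31.5% of its transcript's stretches occur in CES1P1 or CES1P2. CES4A had 23 counts over 7 libraries and CES5A had 11 over 3 libraries, with none in the monolayer.

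Both tested epoxide hydrolases were higher in every spheroid library than in any monolayer library. For single days, 41.4% of all genes were higher without overlap at Day 3 and 38.8% at Day 28. The share over all days was not counted. EPHX1, the microsomal enzyme that opens epoxides left by P450 oxidation (chr1:225810092-225845563, plus strand), had 51.6, 57.2 and 51.2 CPM in the monolayer libraries, 206, 213 and 211 at Day 3, 236, 243 and 231 at Day 7, 185, 198 and 182 at Day 10, 129.8, 129.6 and 111 at Day 14, 189, 180.1 and 167 at Day 21 and 132, 126 and 132 at Day 28. Day 14 and Day 28 were its lowest spheroid groups. The log2 fold change was 1.98 ± 0.07 (SE, adjusted p = 4.71e-23) at Day 3 and 1.28 ± 0.07 (SE, adjusted p = 7.23e-18) at Day 28. The difference of Day 28 from Day 3 was -0.69 ± 0.07 (SE, adjusted p = 5.35e-11). EPHX2, the soluble enzyme that hydrolyses epoxy fatty acids, had 5.47, 5.68 and 4.91 CPM in the monolayer libraries, 40.5, 41.9 and 41.5 at Day 3, 50.8, 48.6 and 52.04 at Day 7, 45.1, 44.4 and 45.9 at Day 10, 47.1, 46.1 and 44.6 at Day 14, 46.03, 41.7 and 38.3 at Day 21 and 45.2, 32.4 and 38.5 at Day 28. Its spheroid groups lay close together, with Day 7 highest. In log2 terms the difference from the monolayer was 2.94 ± 0.11 (SE, adjusted p = 1.89e-22) at Day 3 and 2.85 ± 0.11 (SE, adjusted p = 9.14e-22) at Day 28. Between Day 28 and Day 3 it was -0.10 ± 0.09 (SE, adjusted p = 0.366), which did not pass. EPHX4 had 78 counts over 17 libraries, 4 of them in the monolayer, and EPHX3 was at 0 throughout.

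FMO5 was the only flavin-containing monooxygenase with enough counts to test. It is abundant in adult liver and is known for inserting oxygen next to ketones. Its start region is shown as that of the sole tested gene of its family, from chr1:147225290-147225589 on the minus strand (RefSeq, GRCh38.p14).
FMO5: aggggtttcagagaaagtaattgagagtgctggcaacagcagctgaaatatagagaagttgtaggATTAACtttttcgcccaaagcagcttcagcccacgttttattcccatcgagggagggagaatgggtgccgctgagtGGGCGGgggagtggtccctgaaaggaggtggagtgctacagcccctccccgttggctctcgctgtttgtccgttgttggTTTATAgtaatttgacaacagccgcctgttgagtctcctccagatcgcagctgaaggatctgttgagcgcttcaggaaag

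The window held a GC box beginning 109 bases before the start, a partial HNF1 site at 185 bases before it, and 11 CG pairs. A match to the TATA box letters began 30 bases before the start, on the strand opposite to the gene. The FMO5 window lies inside the GENCODE 29 span of the gene rather than at its 5′ end, so these positions refer to the RefSeq start alone. FMO5 (chr1:147175351-147243050, minus strand) had 10.1, 10.3 and 9.82 CPM in the monolayer libraries, 59.9, 63.2 and 67.1 at Day 3, 78.5, 83.98 and 94.03 at Day 7, 69.7, 69.8 and 81.9 at Day 10, 79.4, 79.9 and 84.9 at Day 14, 99.5, 96.7 and 114 at Day 21 and 67.98, 79.6 and 78.9 at Day 28. All spheroid libraries were at 59.9 CPM or more, against 10.3 CPM or less in the monolayer, and Day 21 was the highest group. Against the monolayer, its log2 fold change was 2.65 ± 0.09 (SE, adjusted p = 7.75e-23) at Day 3, 3.36 ± 0.09 (SE, adjusted p = 2.97e-25) at Day 21 and 2.91 ± 0.09 (SE, adjusted p = 1.4e-23) at Day 28. FMO1, the fetal liver form, had 6 counts over 2 libraries. FMO4 had 30 counts over 8 libraries and FMO2 was at 0 throughout. None of the FMO1 or FMO4 counts came from the monolayer.

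AOX1, the molybdenum-containing aldehyde oxidase, was the tested gene that went the other way. It oxidizes drugs with aromatic nitrogen rings as well as aldehydes. Its start region is shown as that of the single tested gene that fell, from chr2:200585764-200586063 on the plus strand (RefSeq, GRCh38.p14).
AOX1: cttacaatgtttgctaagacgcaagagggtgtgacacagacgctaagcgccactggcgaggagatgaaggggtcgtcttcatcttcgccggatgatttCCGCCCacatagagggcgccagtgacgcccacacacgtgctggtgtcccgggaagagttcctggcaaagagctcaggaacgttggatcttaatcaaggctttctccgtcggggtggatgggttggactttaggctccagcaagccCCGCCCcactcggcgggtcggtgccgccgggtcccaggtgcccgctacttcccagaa

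This window held GC boxes beginning 152 and 7 bases before the start and 22 CG pairs. AOX1 (chr2:200585868-200677064, plus strand) had 275, 278 and 263 CPM in the monolayer libraries, 45.6, 49.2 and 51.3 at Day 3, 67.3, 67.6 and 59.6 at Day 7, 54.9, 54.99 and 59.7 at Day 10, 95.6, 90.01 and 114 at Day 14, 78.2, 73.3 and 87.02 at Day 21 and 107, 95.3 and 114 at Day 28. The lowest monolayer library was at 263 CPM and the highest spheroid library at 114 CPM. Its difference from the monolayer on the log2 scale was -2.48 ± 0.09 (SE, adjusted p = 4.98e-23) at Day 3, a level 5.59 times lower than in the monolayer, and -1.37 ± 0.08 (SE, adjusted p = 2.62e-16) at Day 28. Day 28 against Day 3 was 1.12 ± 0.08 (SE, adjusted p = 2.41e-13), so Day 28 lay between Day 3 and the monolayer.

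Within the spheroid course the genes did not move as 1 block. Over the 6 spheroid days, an F test called 22 of the 24 genes, where 76.2% of all genes were called, and the exceptions were ALDH3A1 (adjusted p = 0.144) and ALDH5A1 (adjusted p = 0.0649). At Day 28 against Day 3, 7 genes were higher (29.2%) and 11 lower (45.8%), against 29.5% higher and 30.2% lower among all genes (59.6% called). The share that was higher lies near that of all genes. The genes that rose were ADH4, AOX1, ADH6, ALDH6A1, CES2, FMO5 and ALDH16A1. The genes that fell were ALDH8A1, ALDH3B1, CES3, ALDH1B1, ALDH18A1, ALDH1A1, EPHX1, ALDH5A1, ALDH4A1, ALDH9A1 and ALDH3A2. By family, 9 of the 14 tested aldehyde dehydrogenases fell and 2 rose, while 2 of 3 alcohol dehydrogenases rose and none fell. The ALDH3A2 difference of -0.18 ± 0.08 (SE, adjusted p = 0.0432) was not called by DESeq2 (adjusted p = 0.0566) and not after leaving out any 1 of these libraries other than Day 28 replicate 1 (adjusted p = 0.0818 to 0.374).

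**Figure D4:**
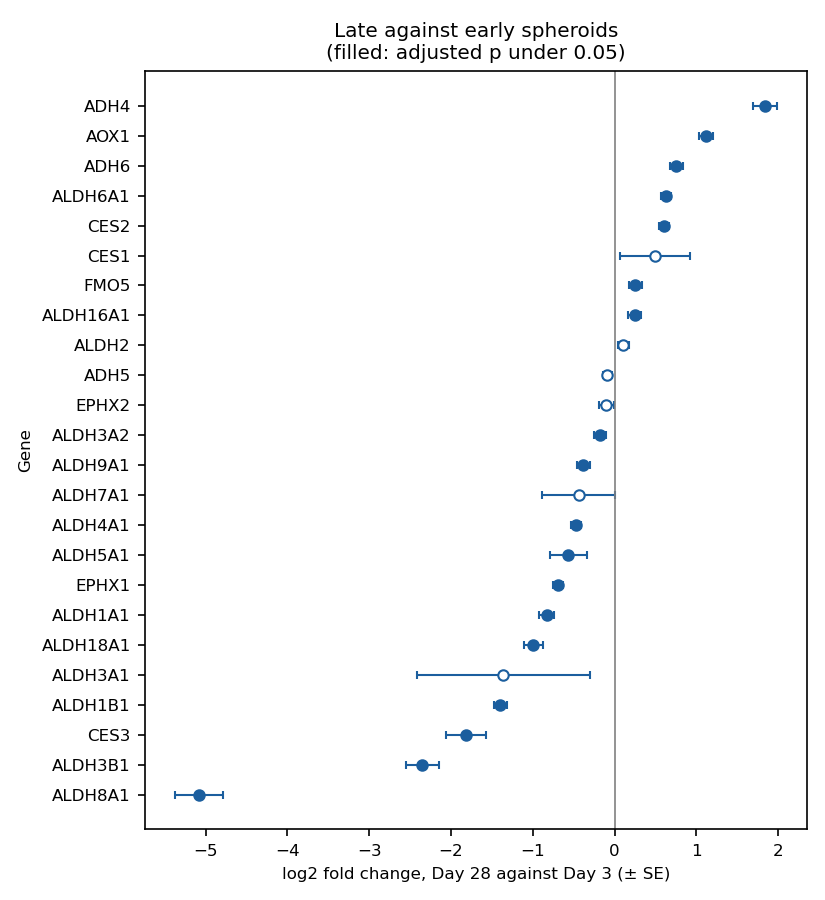
Log2 fold change of Day 28 against Day 3 spheroids (points, ± SE) for the 24 tested genes, in order of size; filled points have an adjusted p under 0.05. ADH4 stands at 1.84 and AOX1 at 1.12 at the upper end, and ALDH8A1 at -5.08 at the lower end.

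Step by step, Day 7 against Day 3 had 9 genes higher and 2 lower, where 19.4% of all genes were called (10.6% higher and 8.76% lower). ADH4 rose by 1.46 ± 0.15 (SE, adjusted p = 1.02e-08), ALDH6A1 by 0.45 ± 0.06 (SE, adjusted p = 4.41e-06) and FMO5 by 0.43 ± 0.08 (SE, adjusted p = 0.000224), and ALDH18A1 was lower, with -0.66 ± 0.11 (SE, adjusted p = 4.67e-05). The count of 11 called genes was 7 without Day 3 replicate 1 and 7 without Day 7 replicate 3. CES1 was called here at an adjusted p of 0.0491, but not in DESeq2 (0.0595) or without any 1 of these libraries other than Day 7 replicate 1 (0.0620 to 0.219). ALDH16A1, the other lower gene, was called at 0.0306 and lost that call whichever of the Day 3 or Day 7 libraries was left out (0.0525 to 0.130).

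Day 10 against Day 7 had 1 gene higher and 8 lower, where 27.4% of all genes were called (13.9% higher and 13.5% lower). ADH4 (-0.90 ± 0.14 SE, adjusted p = 1.1e-05), ALDH4A1 (-0.53 ± 0.06 SE, adjusted p = 2.59e-07) and ALDH6A1 (-0.47 ± 0.06 SE, adjusted p = 1.23e-06) were among the genes that fell, and ALDH16A1 (0.41 ± 0.08 SE, adjusted p = 0.000268) was the gene that rose. Both of these steps use the same Day 7 libraries. FMO5 was called lower at an adjusted p of 0.0484, but not without Day 7 replicate 2 or 3 or Day 10 replicate 1 or 2 (0.0903 to 0.381), and CES3 at 0.00525, but not without Day 7 replicate 2 (0.0742).

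Day 14 against Day 10 had 5 genes higher and 9 lower, where 48.3% of all genes were called (24.0% higher and 24.3% lower). Beside the fall of ALDH8A1, the genes ALDH1A1 (-0.90 ± 0.09 SE, adjusted p = 5.33e-09), EPHX1 (-0.61 ± 0.06 SE, adjusted p = 1.77e-09) and ADH5 (-0.52 ± 0.05 SE, adjusted p = 1.48e-09) were lower, and AOX1 (0.82 ± 0.08 SE, adjusted p = 4.85e-10) and CES2 (0.47 ± 0.06 SE, adjusted p = 5.96e-08) were higher. ALDH4A1 was called higher at Day 14 at 0.0354, but not in DESeq2 (0.0542). Nor was it without any 1 of the Day 10 or Day 14 libraries other than Day 10 replicate 2 (0.0528 to 0.211). ALDH16A1 was called lower at 0.0243, but not with library size scaling (0.115). It also lost that call without Day 10 replicate 1, Day 14 replicate 1 or Day 14 replicate 3 (0.0663 to 0.154). Day 21 against Day 14 had 10 genes higher and 2 lower, where 26.6% of all genes were called (13.9% higher and 12.7% lower). ADH5 (0.60 ± 0.05 SE, adjusted p = 4.29e-10), EPHX1 (0.53 ± 0.06 SE, adjusted p = 1.29e-07) and ALDH1A1 (0.51 ± 0.09 SE, adjusted p = 0.000117) were higher there, as was ADH6 (0.68 ± 0.08 SE, adjusted p = 4.19e-08), and ALDH4A1 (-0.38 ± 0.06 SE, adjusted p = 3.01e-05) was lower. The Day 14 libraries enter both comparisons, so the opposite signs share them. AOX1 was lower at Day 21 with an adjusted p of 0.00245, or 0.0505 without Day 14 replicate 3.

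Day 28 against Day 21 had 3 genes higher and 8 lower, where 24.0% of all genes were called (10.0% higher and 14.0% lower). ALDH3B1 (-1.36 ± 0.21 SE, adjusted p = 9.11e-06), ALDH1B1 (-0.90 ± 0.08 SE, adjusted p = 5.66e-10) and EPHX1 (-0.46 ± 0.06 SE, adjusted p = 2.92e-06) fell, and AOX1 (0.41 ± 0.08 SE, adjusted p = 0.000343) rose. ALDH8A1 fell with an adjusted p of 0.00679, or 0.0648 without Day 21 replicate 1, and ADH4 rose with 0.00473, or 0.0566 without Day 28 replicate 3. Scaling by library size alone turned the all-gene split of 1240 higher and 1724 lower into 1661 higher and 1324 lower at this step, and that of 1312 higher and 1081 lower at Day 7 against Day 3 into 1065 higher and 1637 lower. The split of the enzyme genes was then 3 higher and 7 lower at the last step, and 8 higher and 2 lower at the earliest.

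By mean level, 12 of the 24 genes had their highest group at Day 7, which is 50% of them, against 11.1% of all genes tested. Those 12 were ADH5, ALDH1A1, ALDH1B1, ALDH3A1, ALDH3B1, ALDH4A1, ALDH7A1, ALDH8A1, CES1, CES3, EPHX1 and EPHX2. Among them, ALDH3A1, ALDH7A1, ALDH8A1 and CES1 passed the filter on low counts through spheroid libraries, so their highest group is partly set by that filter. ALDH3A1 reached a mean of 10 counts in only 2 groups. The monolayer was the highest group for AOX1 alone, or 4.17% of the 24 genes, against 35.2% of all genes. Day 21 was highest for ADH6, ALDH2, ALDH3A2, CES2 and FMO5, and Day 3 for ALDH18A1, ALDH5A1 and ALDH9A1. Day 28 was highest for ADH4, ALDH16A1 and ALDH6A1, of which ADH4 also passed the filter on low counts through spheroid libraries. Neighbouring days often did not differ beyond their spread, as the tests between days show, and these shares are descriptions without a test.

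**Figure D5:**
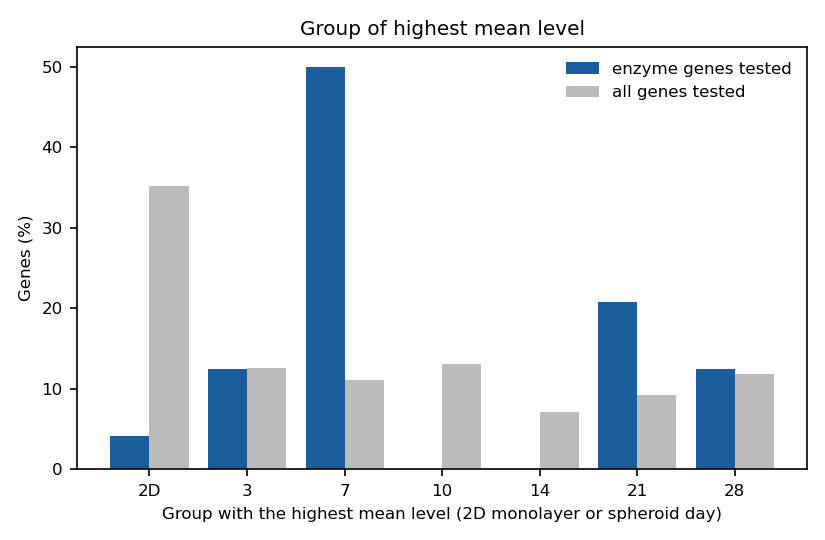
Share of genes (percent) whose mean level is highest in each group, for the 24 tested enzyme genes (left bar of each pair) and all 12345 genes tested (right bar). Day 7 holds 50% of the enzyme genes and 11.1% of all genes, and the monolayer 4.17% and 35.2%. The enzyme genes at Day 7 include 4 that passed the filter on low counts through spheroid libraries.

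Members without enough counts to test numbered 16. ALDH1A2, a retinal dehydrogenase of the embryo, had 39 of its 88 counts in the monolayer libraries and averaged 0.047 CPM at Day 3 and 0.399 CPM in the monolayer (n = 3 each). It did not pass the filter on low counts. Where an alternative let it through, it was called lower at Day 3 without the filter (log2 fold change -3.08 ± 1.39 SE, adjusted p = 0.0461), without monolayer replicate 3 (adjusted p = 0.0155) and without Day 3 replicate 3 (adjusted p = 0.0174). It was not called without Day 3 replicate 1 (adjusted p = 0.0952) or replicate 2 (adjusted p = 0.0569). At Day 7 it was called lower without Day 7 replicate 1 (adjusted p = 0.0197) and not without the filter (adjusted p = 0.172). At Day 28 it was called lower without Day 28 replicate 3 (adjusted p = 0.00987) and not without the filter (adjusted p = 0.145). ALDH1A3 had 3 counts in all, and ALDH1L1, the folate-linked formyltetrahydrofolate dehydrogenase, and ALDH3B2 were at 0 in every library.

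Genes of related steps were set beside these families. In what follows, the shares of all genes called are 40.1% higher and 37.8% lower at Day 3, and 38.5% higher and 34.8% lower at Day 28. Other alcohol and aldehyde handling genes had 8 of 9 tested higher and 1 lower at Day 3, and 5 higher and 2 lower at Day 28, with median log2 fold changes of 1.75 and 0.61, against 0.06 and 0.08 for all genes. Within them ACSS1, which activates acetate in the mitochondrion, averaged 6.73 ± 0.525 CPM at Day 28 and 1.19 ± 0.222 CPM in the monolayer (SD, n = 3 each), a log2 fold change of 2.47 ± 0.17 (SE, adjusted p = 2.01e-14). HIBADH, a valine pathway dehydrogenase, fell to 21.3 ± 2.69 CPM at Day 28, against 27.4 ± 2.13 CPM in the monolayer, with -0.36 ± 0.10 (SE, adjusted p = 0.00137).

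Esterases and lactonases outside the CES family had 10 of 12 higher and 1 lower at Day 3, and 9 higher and 3 lower at Day 28, with medians of 2.14 and 1.09. LIPC, the hepatic lipase, gave 2.82 ± 0.12 (SE, adjusted p = 4.75e-19) at Day 28, and NCEH1, a cholesteryl ester hydrolase, gave -1.63 ± 0.08 (SE, adjusted p = 6.04e-18). Retinol and short-chain dehydrogenases had 6 of 13 higher and 4 lower at Day 3, and 7 higher and 3 lower at Day 28, counts near those shares, with medians of 0.32 and 0.51. RDH16, a liver retinol dehydrogenase at few counts in the monolayer (0.0923 ± 0.0318 CPM), gave 4.41 ± 0.48 (SE, adjusted p = 8.27e-10), and DHRS7 gave -0.91 ± 0.09 (SE, adjusted p = 2.12e-10).

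Other oxidoreductases that are not P450 enzymes had 8 of 11 higher and 3 lower at Day 3, and 8 higher and 1 lower at Day 28, with medians of 1.27 and 1.45. CYB5A, the cytochrome b5 electron carrier, gave 3.04 ± 0.50 (SE, adjusted p = 2.31e-06) at Day 28, and PTGR1, a reductase of prostaglandins and alkenals, gave -0.81 ± 0.22 (SE, adjusted p = 0.00176). The genes that make the molybdenum cofactor used by AOX1 had 3 of 5 higher and 1 lower at Day 3, and 2 higher and none lower at Day 28, with medians of 0.31 and 0.18. MOCS2, a subunit of molybdopterin synthase, gave 2.75 ± 0.35 (SE, adjusted p = 1.58e-08) at Day 28. MOCOS, the sulfurase that completes the cofactor for AOX1, named here after its values were seen, averaged 9.08 ± 0.649 CPM at Day 3 and 32.7 ± 2.99 CPM in the monolayer (SD, n = 3 each), a log2 fold change of -1.85 ± 0.14 (SE, adjusted p = 1.26e-13). At Day 28 it averaged 28.3 ± 4.44 CPM, with -0.21 ± 0.13 (SE, adjusted p = 0.163) against the monolayer, which did not pass, and 1.64 ± 0.14 (SE, adjusted p = 8.93e-12) against Day 3.

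Partners of the aldehyde dehydrogenases in amino acid pathways had 17 of 19 higher and none lower at Day 3, and 15 higher and none lower at Day 28, with medians of 1.91 and 1.64. BHMT, which uses betaine to remake methionine, was at 0 counts in the monolayer libraries and averaged 0.52 ± 0.34 CPM at Day 28 (SD, n = 3). Its Day 28 mean was 16.2 times a floor of 3 counts over the monolayer group, a ratio that leaves out the spread of the Day 28 libraries. At Day 28 against Day 3 these partners had 5 higher and 5 lower, the esterase list 1 higher and 9 lower, and the alcohol and aldehyde handling list 1 higher and 7 lower, where 29.5% of all genes were higher and 30.2% lower. The partners' counts lie near those shares.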

How the data were processed

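Expression was measured in 21 libraries of HepG2/C3A cells, 3 in each of 7 groups. The authors deposited raw counts per gene symbol, as whole numbers. Per the submitters' processing notes, the build was GRCh38.p13 and the tools named include STAR 2.7.10b, fastp 0.23.2 and, for base calls, bcl2fastq 2.20.422. The sources used here do not say how probes of 1 gene were combined, and per the labels' protocols each library used the same mass of total RNA.

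From the counts, edgeR 4.0.16 in R 4.3.3 was run on all 21 libraries together (TMM scaling, filterByExpr with a minimum count of 10, robust quasi-likelihood fit, 1 coefficient per group), leaving 12345 of 19683 symbols. p-values were adjusted by Benjamini and Hochberg over those genes, with 0.05 as the threshold, and SE is the log2 fold change over the root of F. CPM are counts scaled to the usual CPM total with TMM-scaled library sizes. The procedure was tested on simulated data with known changes. Total counts of 18760232 to 43443262 set the precision, and the biological coefficient of variation was 9.62%.

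The genes and lists were chosen with earlier results of these data known. The values of 1 untested gene are not reported here. Values in every library are given for FMO5, CES2, EPHX1 and for tested genes with a group mean of at least 1 CPM that were called with an absolute log2 fold change of at least 1 in Day 28 against the monolayer or against Day 3. Of each pathway list, the called genes with the largest rise and fall at Day 28 against the monolayer are named. Gene positions are from GENCODE 29, which located 40 of 40 genes, and start regions from RefSeq, which held 31 of them. Other scalings, no filter, DESeq2 1.42.0, only the groups compared, a replicate block and each library left out were tried.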

Additional observations from a re-analysis of the deposited data

How the results depend on the processing

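For the 19 genes given in every library, in the 3 comparisons of Day 3 and Day 28 with the monolayer and of Day 28 with Day 3, 672 of 683 alternative values kept direction and side of the threshold, 3 lost it, 8 gained it and 0 reversed a called direction. Over all 24 tested genes and all comparisons, the steps between days included, 76 alternative values lost a call and 50 gained one. Of 168 alternative counts of called genes, 165 stayed within 1.5 times. The exceptions were Day 7 against Day 3, where 11 genes became 7 (6 higher and 1 lower) without Day 3 replicate 1 and 7 without Day 7 replicate 3, and Day 28 against Day 21, where 11 became 7 (2 higher and 5 lower) with only the groups compared. The cause was not tested. Leaving out each library in turn gave 23 to 25 called genes for Day 3 against the monolayer, 24 to 25 for Day 7 and 23 to 24 for Day 10. The counts were 23 for Day 14 and Day 21, and 21 to 22 for Day 28. Some of these runs let more than 24 genes through the filter. Where 25 were called, the added gene was ALDH1A2, called lower. That was at Day 3 without monolayer replicate 3 (adjusted p = 0.0155) and at Day 7 without Day 7 replicate 1 (adjusted p = 0.0197). At Day 10 the added gene was EPHX4, called higher. Between days, leaving out each library gave 7 to 10 for Day 7 against Day 3, 8 to 9 for Day 10 against Day 7 and 12 to 14 for Day 14 against Day 10. The counts were 9 to 12 for Day 21 against Day 14, 8 to 12 for Day 28 against Day 21, 16 to 19 for Day 28 against Day 3, and 21 to 24 in the F test. Whether same-numbered libraries share more than a number was not tested. Of 63 same-numbered pairs, 0 correlated above 0.1 (-0.06 to 0.10, median 0.015). Of 126 differently numbered pairs, 0 did so either (-0.12 to 0.08, median -0.007), so that cut cannot tell these kinds of pair apart. By best match among the 3 replicate numbers, 16 of 21 libraries correlated best with their own number, and the main fit had no term for it. With the replicate block the counts were 24, 24, 23, 23, 23 and 21 against the monolayer at Day 3 to Day 28, 12, 10, 15, 12 and 13 for the consecutive steps, 18 for Day 28 against Day 3 and 22 in the F test. Depth limits ALDH3A1, ALDH7A1, ALDH8A1 and CES1, whose monolayer means were under 10 counts.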

Other observations

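Of the 16 tested regulators of drug-metabolizing genes, 6 were higher and 7 lower than the monolayer at Day 3, and 7 were higher and 7 lower at Day 28. These counts lie near the shares of all genes called, which were 40.1% higher and 37.8% lower at Day 3 and 38.5% higher and 34.8% lower at Day 28. Their list had median log2 fold changes of -0.10 and 0.14 against 0.06 and 0.08 for all genes. NR1I3, the constitutive androstane receptor, averaged 6.83 ± 3.05 CPM at Day 28 and 1.01 ± 0.383 CPM in the monolayer (SD, n = 3 each), a log2 fold change of 2.77 ± 0.29 (SE, adjusted p = 4.33e-10). FOXA2, a forkhead factor of endoderm and liver, averaged 28.5 ± 5.1 CPM at Day 28 and 74.04 ± 10.97 CPM in the monolayer, with -1.37 ± 0.13 (SE, adjusted p = 1.75e-10).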
